A study of Mus musculus with 12 samples.

Results

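The distal peaks described here were nearly absent from fibroblasts that received the 4in1 cassette with GFP and were present when Prox1 replaced GFP. Of the 176680 ATAC-seq peaks in the authors' table, 902 (0.511%) met the rule, which is 0.605% of the 149144 distal peaks. A member had a group mean below 4.5 in 4in1_GFP_OE and of at least 6.5 in 4in1_Prox1_OE, both as log2 of mean normalized reads, which correspond to 22.6 and 90.5 reads. Its window also lay more than 1 kb from any start site of the GENCODE M21 annotation. Both limits were passed by 966 peaks, of which 61 lay within 1 kb of a start site and 3 lay over coding exons of Prox1, where DNA of the vector adds reads.

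ATAC-seq measures open chromatin by the insertions of the transposase Tn5. The study made 12 libraries from MEFs, primary fibroblasts of E13.5 C57BL/6N wild-type mouse embryos, transduced with lentivirus and harvested on day 2 of doxycycline, in 4 groups of 3 libraries. All groups carried rtTA, the transactivator that doxycycline switches on. MEF libraries had rtTA alone, Prox1_OE libraries had rtTA with FLAG-tagged mouse Prox1, 4in1_GFP_OE libraries had rtTA, the 4in1 vector and GFP, and 4in1_Prox1_OE libraries had rtTA, the 4in1 vector and FLAG-tagged mouse Prox1. The table concerns the last 2 groups, so each value rests on a mean of 3 libraries, and the other groups were not analysed here. Transduced cultures are pools of cells with differing insertions, and a group mean cannot tell more cells with an open site from a site that is more open in each cell. The members were chosen by the 2 group means themselves, so their levels and differences are a description and were not tested. Without values per library no spread can be given.

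Enhancers are stretches of DNA outside promoters that bind transcription factors and act on genes at a distance. In fibroblasts, many of them carry binding sites for AP-1, TEAD and RUNX factors. The zinc finger factor EBF, the bHLH factors that bind E-boxes, the CCAAT-binding complex NF-Y and the NFI family are known to bind enhancers or promoters in mesenchymal, neural, muscle or liver cells. PROX1 is a homeodomain protein of hepatocytes, lymphatic endothelium and other cell types, and is known to repress or activate genes depending on the cell type. The 4in1 vector carries transcription factors used to turn fibroblasts into hepatocyte-like cells. They are not named in the sources used here.

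The 6 members with the highest 4in1_Prox1_OE mean are printed first, because they were the most open windows of the set once Prox1 was present. They are chr7:145189453-145189653 (intron of Tpcn2), chr13:93662472-93662672 (coding exon of Bhmt2), chr2:145718997-145719197 (intron of Rin2), chr9:43535345-43535545 (intergenic, nearest protein-coding start Trim29), chr3:24942784-24942984 (intron of Naaladl2) and chr1:132090967-132091167 (intergenic, nearest Mfsd4a). All are forward strand sequence of mm10 (GRCm38). Capitals mark the 5-letter words TGACA and CAGGT on either strand, which were chosen after their shares were seen.
Tpcn2 intron window: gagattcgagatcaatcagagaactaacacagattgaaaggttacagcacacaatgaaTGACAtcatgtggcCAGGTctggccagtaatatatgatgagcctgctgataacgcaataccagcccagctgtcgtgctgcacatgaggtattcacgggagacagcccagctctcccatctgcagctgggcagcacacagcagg
Bhmt2 coding window: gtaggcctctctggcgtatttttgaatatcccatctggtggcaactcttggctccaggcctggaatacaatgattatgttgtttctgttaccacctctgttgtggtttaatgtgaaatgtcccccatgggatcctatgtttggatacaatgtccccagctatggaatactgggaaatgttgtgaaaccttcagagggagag
Rin2 intron window: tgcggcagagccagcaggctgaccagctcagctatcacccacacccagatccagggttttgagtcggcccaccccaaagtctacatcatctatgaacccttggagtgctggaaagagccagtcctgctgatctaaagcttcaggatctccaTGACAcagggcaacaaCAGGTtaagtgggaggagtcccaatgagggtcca
Trim29 window: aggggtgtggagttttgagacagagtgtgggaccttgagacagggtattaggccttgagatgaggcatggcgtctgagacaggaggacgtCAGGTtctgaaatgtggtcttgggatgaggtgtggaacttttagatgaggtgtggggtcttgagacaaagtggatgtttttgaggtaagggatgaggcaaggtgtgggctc
Naaladl2 intron window: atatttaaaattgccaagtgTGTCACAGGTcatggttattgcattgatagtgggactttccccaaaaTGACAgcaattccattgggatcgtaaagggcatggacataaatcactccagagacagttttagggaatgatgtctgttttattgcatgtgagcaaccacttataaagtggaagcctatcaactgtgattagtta
Mfsd4a window: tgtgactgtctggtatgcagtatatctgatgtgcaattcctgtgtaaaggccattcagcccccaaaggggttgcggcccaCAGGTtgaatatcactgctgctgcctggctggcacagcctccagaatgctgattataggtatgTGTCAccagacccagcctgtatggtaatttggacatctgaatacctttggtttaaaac
The Bhmt2 window held neither word, and the other 5 held between 1 and 3 matches.

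A second set shows 1 member for each of 5 motifs, always the member with the highest 4in1_Prox1_OE mean. Among motifs held by at least 1% of members, their shares stood highest against other distal peaks. That minimum was set after the shares were seen, and it left out a direct repeat with a higher ratio. Capitals mark the match. The windows are chr19:11303161-11303361 (coding exon of Ms4a14), chr12:34372933-34373133 (exon of a gene whose nearest protein-coding start is Hdac9), chr1:39838844-39839044 (intergenic, nearest Gm3646), chr9:64053296-64053496 (intron, nearest Smad6) and chr12:16665019-16665219 (intergenic, nearest Greb1).
EBF, Ms4a14 window: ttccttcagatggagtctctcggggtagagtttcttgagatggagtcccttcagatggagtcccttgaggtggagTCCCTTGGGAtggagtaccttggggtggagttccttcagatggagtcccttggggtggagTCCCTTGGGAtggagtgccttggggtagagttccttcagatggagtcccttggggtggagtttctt
NF-Y, Hdac9 window: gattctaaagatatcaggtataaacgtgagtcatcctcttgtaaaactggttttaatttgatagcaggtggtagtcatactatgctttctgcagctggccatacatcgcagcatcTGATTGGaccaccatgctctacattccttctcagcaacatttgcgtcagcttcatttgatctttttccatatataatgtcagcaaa
NFI, Gm3646 window: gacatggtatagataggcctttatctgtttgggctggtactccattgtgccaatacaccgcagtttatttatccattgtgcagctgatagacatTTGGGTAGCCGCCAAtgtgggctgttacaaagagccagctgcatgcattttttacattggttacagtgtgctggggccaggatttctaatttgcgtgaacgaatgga
p53, Smad6 window: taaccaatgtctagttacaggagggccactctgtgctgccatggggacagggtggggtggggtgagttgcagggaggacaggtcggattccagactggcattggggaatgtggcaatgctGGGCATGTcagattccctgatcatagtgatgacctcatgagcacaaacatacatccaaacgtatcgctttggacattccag
E-box CAGGTG, Greb1 window: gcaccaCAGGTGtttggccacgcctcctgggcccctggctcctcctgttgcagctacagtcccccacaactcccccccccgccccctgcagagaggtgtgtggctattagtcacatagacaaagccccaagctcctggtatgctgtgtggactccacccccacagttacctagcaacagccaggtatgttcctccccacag
The Ms4a14 window is built of a short repeated unit, and its 2 EBF matches lie in copies of that unit. The Greb1 window is 79.1% soft-masked and belongs to a group of 12 members alike in sequence, the fifth of those described with the alignments. Of the first 6 windows, those of Mfsd4a and Rin2 also align with other members.

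Members held few reads without Prox1, though not none. Their 4in1_GFP_OE means ran from 0.90 to 4.50 with a median of 4.11, or 17.2 normalized reads. Only 12 members lay below 2.00. With Prox1 the means ran from 6.501 to 7.84 with a median of 6.72, or 106 normalized reads. That median was above 64.9% of all distal peaks in the same group, and the highest member was above 93.5%. The lowest member was already above 56.3%, so their middle to upper height among distal peaks with Prox1 was set by the rule. Of the members, 170 (18.8%) reached 7 and 13 reached 7.5.

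**Figure D1:**
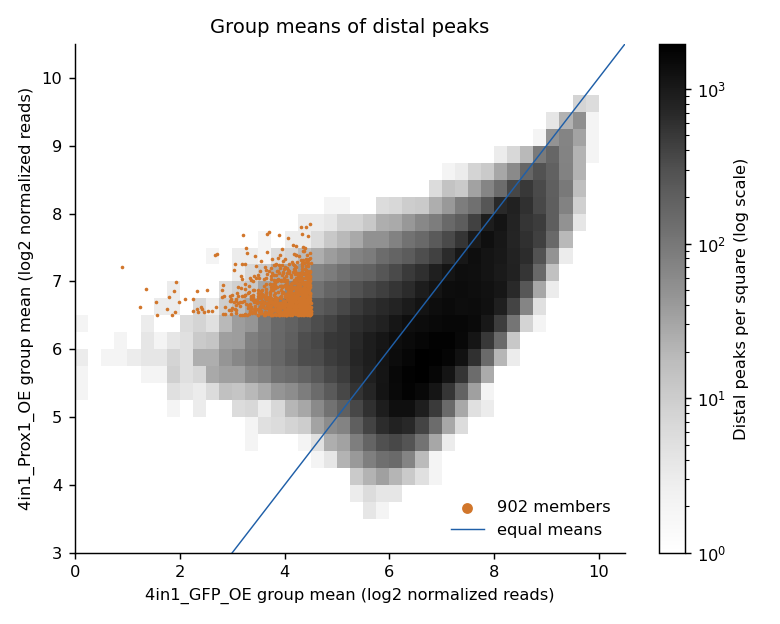
Group means of distal peaks without Prox1 (x axis) and with it (y axis), both as log2 normalized reads. Grey squares count all distal peaks on a log scale, orange points are the 902 members, and the blue line marks equal means. The members form the edge of a continuous cloud at upper left, cut at 4.5 and 6.5, and do not stand apart as a cluster.

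The difference, 4in1_Prox1_OE minus 4in1_GFP_OE, was 2.71 at the median of the members in log2 units, with quartiles of 2.44 and 3.10 and a range of 2.01 to 6.31. This is a median fold of 6.55 between group means. The rule alone fixed a difference above 2.00. A difference of at least 2.00 was found in 2.22% of all peaks and in 2.48% of distal peaks, and since the rule used this contrast nothing is read from the members' count beside it. The median difference was -0.42 over all peaks and -0.50 over distal peaks, and 72.3% and 71.6% lay below 0. That direction rests on the normalization, which is not given in the sources used here. With both groups scaled to equal totals, a shift of 0.41, the medians would be -0.0050 and -0.08. Of the members, 273 (30.3%) differed by at least 3.00, 36 by at least 4.00 and 5 by at least 5.00.

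The limits cut through a continuum. Just inside the 4in1_GFP_OE limit, the 5 nearest members had means of 4.498 to 4.50 without Prox1 and 6.52 to 7.27 with it. The 5 nearest peaks outside had 4.50 to 4.504 and 6.52 to 6.80. At the other limit, the 5 nearest members had 4in1_Prox1_OE means of 6.501 to 6.502, and the 5 nearest peaks outside had 6.497 to 6.49997. Of the 4928 distal peaks below the 4in1_GFP_OE limit, 18.3% reached the upper limit. The other 4026, here called the low set, share with the members their near absence without Prox1. Their median was 4.01 without Prox1 and 5.95 with it, a median difference of 2.00. Only called peaks are listed, and the lowest mean of a distal peak over both groups was 4.04. Windows low in both groups are thus largely missing. The rise of the low set follows in part from this entry and is not read as a result.

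The 12 members with the highest 4in1_Prox1_OE mean had means between 7.52 and 7.84 there. First was the intron window of Tpcn2, a gene of an endolysosomal ion channel, at 4.49 without Prox1 and 7.84 with it. The start of 1810010D01Rik, 17.5 kb away, was nearer to it than that of Tpcn2. The window over a coding exon of Bhmt2, a methyltransferase gene of liver and kidney, went from 4.41 to 7.81. The Rin2 intron window went from 4.31 to 7.81.

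Farther from genes, the window 206 kb from the start of Trim29 went from 3.70 to 7.72. The Naaladl2 intron window, 159 kb from its start, went from 3.66 to 7.70. Windows nearest to Mfsd4a, Gtdc1, Greb1, Vwde, Nucb2 and Krtap28-13 had means of 3.90 to 4.45 without Prox1 and 7.52 to 7.69 with it. The Ms4a14 coding window had the largest difference of these 12, from 3.21 to 7.68, a fold of 22.2.

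The largest differences among members came from windows with almost no reads without Prox1. The largest of these, 318.6 kb from the start of Brinp2, went from 0.90 to 7.21, or 79.5-fold. The low set, kept out by the upper limit, reached a larger difference of 6.48. The Brinp2 window is a run of C and T. Every base of it is soft-masked as repeat in the assembly, and 99.5% of its letters are C or T. Next came an intron window of Wdr70 (1.35 to 6.88), which held no such run. The window nearest Man1a followed (1.24 to 6.63), which was again 99.5% C and T.

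Intron windows of Naaladl2 (1.54 to 6.70) and a window 1279 kb from Pcdh18, a protocadherin gene (1.93 to 6.99), completed the 5 members with a difference of at least 5.00. Of the 12 largest differences, 4 came from C and T runs, nearest to Brinp2, Man1a, Tmtc2 and Isl1. The windows nearest to Commd8, Pag1, Mfsd6l, Adamts5 and 9330182L06Rik had differences of 4.69 to 4.98 and no such run. The last of these lies over a coding exon of Grm3, a glutamate receptor gene, and went from 2.71 to 7.40.

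Runs of C and T were rare among the listed peaks, and nearly all of those listed were higher with Prox1. Only 75 of the 149144 distal peaks had at least 90% C and T on 1 strand, and 11 of them were members. Of the 75, 69 (92.0%) were higher with Prox1 by at least 2.00, beside 2.48% of all distal peaks. Their median difference was 4.04, from a median of 1.91 without Prox1 to 6.03 with it. The 64 that were not members had a median difference of 3.91, and 61 of them were in the low set, below 6.5 with Prox1. Windows of 80 to 90% C and T had a median difference of 0.72, and those of 50 to 60% one of -0.49. These peaks share libraries, contrast and sequence type, so they are given as a description. Only called peaks are listed, so runs low in both groups would be missing. With a median of 1.91 without Prox1, the share of rises among these runs was set in part by entry. How the authors treated reads that align to several places is not given in the sources used here. Without windows of 80% C and T or more, 891 members remained, with a median difference of 2.70 and 29 members at 4.00 or more.

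**Figure D2:**
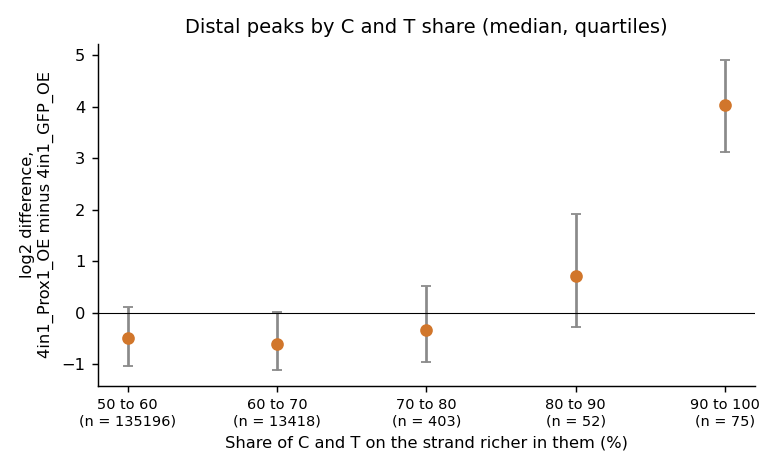
Log2 difference between the group means of distal peaks (y axis) by the share of C and T on the strand richer in them (x axis, percent), with the number of peaks under each class. Points are medians and bars run between the quartiles. The 75 windows above 90% lie near 4.04 while the medians below 80% lie between -0.60 and -0.33 as deposited.

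A wider set of members was alike in sequence. By blastn, 137 of the 902 members (15.2%) aligned over at least 60 bases with another member, and they fell into 21 groups, 9 of them pairs. Among other distal peaks, 4.45% aligned in this way with a member, and in the low set 14.4% did, close to the members' share. Members that aligned with another had a median of 54.2% soft-masked letters, beside 5.97% for the remaining 765, and 84 of the 137 lay between genes. Their median difference was 2.76 against 2.70 for the others, but the rule bounds the levels of both, so nothing is read from this. Windows of 1 group share sequence, so they are not independent sites.

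The largest group held 23 members on 12 chromosomes, with identities of 70.8 to 91.9% over the aligned bases. The windows shown are chr5:151270866-151271066 (intron, nearest Stard13), chr1:75620666-75620866 (intergenic, nearest Slc4a3) and chr10:110181745-110181945 (intron, nearest Nav3), written in 1 orientation, and capitals mark the bases aligned with the Stard13 window.
Stard13 window, plus strand: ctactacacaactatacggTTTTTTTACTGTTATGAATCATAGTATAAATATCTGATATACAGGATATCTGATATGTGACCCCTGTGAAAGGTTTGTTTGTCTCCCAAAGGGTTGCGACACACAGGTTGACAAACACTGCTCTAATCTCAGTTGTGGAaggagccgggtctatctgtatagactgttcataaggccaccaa
Slc4a3 window, plus strand: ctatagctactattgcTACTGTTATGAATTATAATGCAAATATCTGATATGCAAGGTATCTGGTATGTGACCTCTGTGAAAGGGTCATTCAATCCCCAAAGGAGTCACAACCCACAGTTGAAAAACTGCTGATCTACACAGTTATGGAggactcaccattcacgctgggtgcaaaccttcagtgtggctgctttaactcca
Nav3 window, minus strand: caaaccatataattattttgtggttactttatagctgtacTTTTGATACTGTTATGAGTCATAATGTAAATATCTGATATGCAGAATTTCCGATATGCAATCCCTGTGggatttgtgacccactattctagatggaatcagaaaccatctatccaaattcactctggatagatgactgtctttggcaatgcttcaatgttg
These 3 went from 3.24 to 7.25, from 4.28 to 6.96 and from 4.301 to 6.75. The group's medians were 4.19 and 6.75. It belongs to a far larger family of windows. Another 729 distal peaks aligned with its members, at medians of 6.47 without Prox1 and 6.403 with it, and 27 of them (3.70%) were higher by at least 2.00. Of all these windows, 50 were below 4.50 without Prox1, and 23 of the 50 were members. Among all distal peaks below that limit, 18.3% were members. In groups 2, 3, 4 and 5, described below, the counts were 16 of 61, 13 of 75, 12 of 118 and 12 of 51. These windows were found by alignment with members, so their shares of members were set in part by that choice. Nothing is read from them.

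The second group held 16 members on 12 chromosomes, with medians of 3.96 and 6.83. Its examples are chr1:195096720-195096920 (intergenic, nearest Cd46) and chr9:103418908-103419108 (intron, nearest Bfsp2), with the aligned bases in capitals.
Cd46 window, plus strand: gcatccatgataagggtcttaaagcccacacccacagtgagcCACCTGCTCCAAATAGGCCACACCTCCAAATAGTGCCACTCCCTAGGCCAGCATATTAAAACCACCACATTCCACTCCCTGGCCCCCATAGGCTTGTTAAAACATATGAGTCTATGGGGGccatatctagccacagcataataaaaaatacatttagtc
Bfsp2 window, minus strand: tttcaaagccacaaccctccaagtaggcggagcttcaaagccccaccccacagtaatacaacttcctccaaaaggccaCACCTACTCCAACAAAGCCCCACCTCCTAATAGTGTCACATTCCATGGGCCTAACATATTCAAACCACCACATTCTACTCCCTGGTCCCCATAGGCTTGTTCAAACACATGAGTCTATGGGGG
They went from 4.21 to 7.39 and from 4.32 to 7.23. Another 446 distal peaks aligned with this group, with a median difference of 0.10, and 39 of them (8.74%) were higher by at least 2.00. The third group, of 13 members, and the fifth, of 12, had 882 and 344 such relatives, of which 4.20% and 7.27% were higher by at least 2.00. The fourth group held the 11 members with C and T runs and 1 window of 71.6% C and T. It had 177 relatives, not all of them such runs, of which 94 (53.1%) were higher by at least 2.00.

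By location, members lay in introns in 451 cases (50.0%), between genes in 418 (46.3%) and in exons in 33 (3.66%), with 16 windows overlapping coding sequence. Other distal peaks were split 52.3%, 43.1% and 4.59%. Members lay a median of 16.9 kb from the nearest start site and 40.5 kb from the nearest protein-coding one, beside 13.5 and 25.9 kb for other distal peaks. The low set lay farther still, at 18.5 and 46.8 kb. Distal peaks that were already open without Prox1, at 6.5 or more, and higher with it by at least 1.00 were nearer, at 10.9 and 16.6 kb (223 peaks).

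Members were slightly poorer in G and C. Their median GC content was 45.8%, beside 47.8% in other distal peaks and in the low set and 52.7% in the peaks that were open and went higher. No CpG was found in 19.4% of members and 16.3% of other distal peaks. More than 50% of the letters were soft-masked in 11.8% of members, 5.80% of other distal peaks and 17% of the low set.

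Members were spread over all autosomes, where between 0.447% (chromosome 4) and 0.809% (chromosome 10) of distal peaks were members. On the X chromosome only 2 of 2528 distal peaks were (0.0791%). Peaks below the 4in1_GFP_OE limit were themselves rare there, at 30, so that 2 of 30 were members. Chromosome Y had 4 distal peaks and no member. The X chromosome held 0.222% of members, 0.695% of the low set and 1.70% of other distal peaks.

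Motifs were searched as consensus letters on both strands of the peak windows. A match is a description of sequence and not evidence of binding, and windows are not replicates of a condition, so no test was made. The EBF motif, an inverted repeat of TCCC with 2 bases between, was found in 25 members (2.77%) beside 0.867% of other distal peaks and 0.919% of the low set. EBF proteins are known in B cells, adipocyte precursors and neurons. The 25 members with it had a median 4in1_Prox1_OE mean of 6.96, beside 6.72 for the rest. At a stricter upper limit of 7, the share with the motif was 5.88%. The rule itself used the 4in1_Prox1_OE mean, so nothing is read from these levels or from that share.

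The E-box CAGGTG, a site of E proteins and of the repressors ZEB and SNAI, was in 170 members (18.8%) beside 10.6% of other distal peaks. The low set held it in 16.7%, so most of this difference from other distal peaks was shared by peaks that stayed below the upper limit. CAGCTG, the E-box preferred by muscle factors, was in 15.9% of members and 16.1% of other distal peaks. CAGATG was in 18.3% and 18.9%.

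The NF-Y motif CCAATCA was in 41 members (4.55%), beside 2.3% of other distal peaks and 3.25% of the low set. A p53 consensus of A or G, then CATG, then CCC or TCC, was in 47 (5.21%), beside 2.75% and 3.4%. The NFI motif, TTGGC and GCCAA with 5 bases between and at most 1 mismatch, was in 25 (2.77%), beside 1.45% and 1.56%. Without a mismatch it was in 0.111% of members, so its share depends on that setting. Any of these 5 motifs was in 277 members (30.7%), beside 17% of other distal peaks and 24.1% of the low set. The 223 peaks that were open and went higher held one more often, in 33.6%, with CAGGTG in 21.1%, NF-Y in 7.62%, NFI in 4.93%, p53 in 3.14% and EBF in 1.35%. CAGGTG, NF-Y and NFI are therefore not particular to the members. EBF and p53 were less frequent in these 223 peaks than in members, on 3 and 7 peaks, and the difference was not tested. A direct repeat of the nuclear receptor element AGGTCA had a higher ratio, but was in 6 members only (0.665% beside 0.107%), and was left out of the 5 because under 1% of members held it, a limit set after the shares were seen.

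Motifs of liver factor families were present at modest rates. The forkhead letters TGTTTAC or TATTTAC, which FOXA factors bind, were in 70 members (7.76%), beside 5.08% of other distal peaks and 6.21% of the low set. The nuclear receptor element AGGTCA was in 19.5%, beside 14.4% and 14.1%. For HNF4, searched as CAAAGTCCA with at most 1 mismatch, the shares were 7.21%, 6.87% and 6.43%, which lie close together. Without a mismatch they were 0.665%, 0.322% and 0.298%, so the closeness depends on that setting. The direct repeat of AGGTCA, searched for HNF4, RXR and COUP-TF, was in 0.665%, 0.107% and 0.199%, on 6 members. For AGATAA, which zinc finger factors of the GATA family bind, the shares were 7.98%, 7.27% and 7.53%, also close together. No member window held the consensus of Prox1, of HNF1 or of GRHL (AACCGGTT), which were in 0.303%, 0.0229% and 0.0634% of other distal peaks. Those letters are simply not in these windows.

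**Figure D3:**
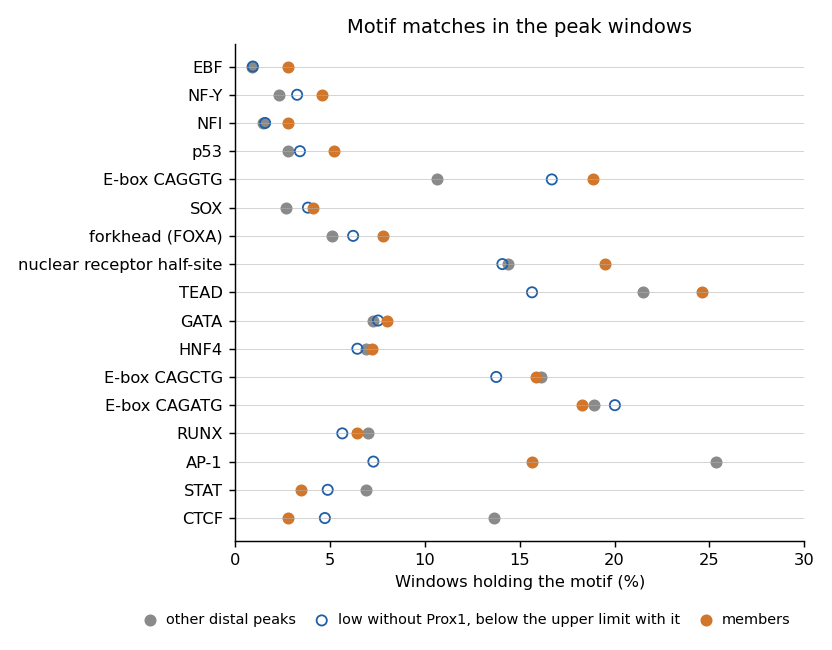
Share of windows holding each motif (x axis, percent) in members (orange), other distal peaks (grey) and the low set (open blue circles). EBF, NF-Y, NFI, p53 and CAGGTG lie highest in members among these 3 sets, while AP-1 and CTCF lie far below other distal peaks.

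AP-1 and CTCF motifs were scarcer in members than in other distal peaks, while TEAD letters were more frequent and RUNX letters near level. AP-1, TGACTCA or TGAGTCA, the site of FOS and JUN, was in 141 members (15.6%) beside 25.3% of other distal peaks. The low set held it in 7.28%, and the peaks that were open and went higher in 26.9%. Among the 27 distal peaks that did the opposite of the members, at least 6.5 without Prox1 and below 4.5 with it, 11 (40.7%) had it. CTCF, a factor of insulators and chromatin loops, had its motif in 25 members (2.77%) beside 13.6% of other distal peaks and 4.72% of the low set. TEAD letters (GGAATG) were in 24.6% of members, 21.5% of other distal peaks and 15.6% of the low set. RUNX letters (TGTGGTT) were in 6.43%, 6.98% and 5.64%.

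These orders did not rest on 1 setting. Over 13 choices of limits, distances, scaling and start sites, the ratio of the members' share to that of other distal peaks stayed above 1 for EBF (2.24 to 6.74), CAGGTG (1.55 to 1.93), NF-Y (1.42 to 2.04), NFI (1.56 to 2.25), p53 (1.41 to 2.13) and forkhead (1.15 to 1.66). It stayed below 1 for AP-1 (0.480 to 0.693) and CTCF (0.173 to 0.303). The 13 sets overlap, so they are not independent. With all windows that align with a member left out of both sides, EBF was in 3.01% of 765 members beside 0.875% of other distal peaks, and CAGGTG in 19.6% beside 10.7%.

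Within the windows, EBF and CAGGTG matches of members were most frequent near the centre, where DiffBind places the summit of the peak. CAGGTG was in 3.55% of members within the 20 bases left of the centre and in 1.44 to 2.22% in the bins beyond 40 bases. Other distal peaks had between 1.04% and 1.42% in every bin. EBF reached 0.887% in the same bin left of the centre, beside 0.136%, although its bins rest on few windows. AP-1 was central in both sets, at 2.99% at most in members and 5.21% in other distal peaks.

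**Figure D4:**
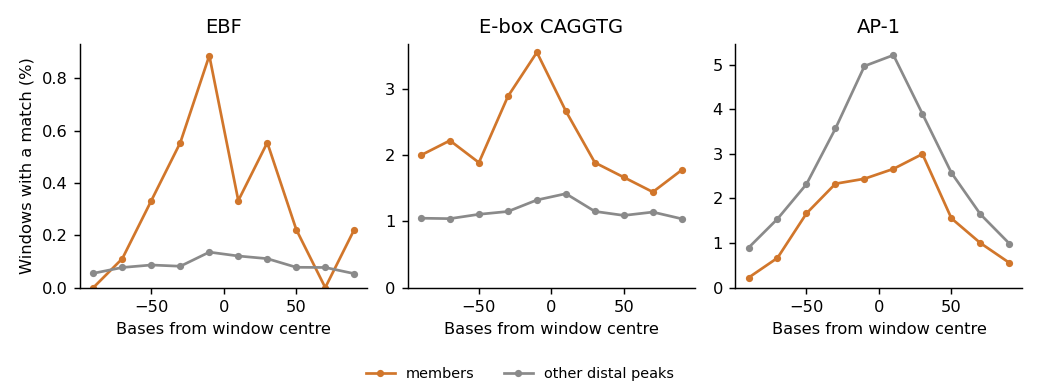
Share of windows with a match centred in each bin of 20 bases (y axis, percent) by distance from the window centre (x axis, bases), for members (orange) and other distal peaks (grey). CAGGTG peaks at 3.55% left of the centre in members and stays within 1.04 to 1.42% in other distal peaks, and each panel has its own scale.

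Short words gave a view without known motifs. Among 6-letter words in at least 5% of members, those with the highest ratio to other distal peaks were rich in A and T. CAATAG was in 13.4% of members beside 5.78%, and the word CCAATA was in 11.9% beside 5.32%. The word ATATCA was in 12.1% of members beside 5.58%, and the word ATGATA was in 11.4% beside 5.38%. The word ATCAAT was in 10.1% of members beside 4.85%. The word ACAATA followed with a ratio of 1.98, and ATATAT and its shifted form had ratios of 1.96. The last of the first 10 were ATTGGC, in 14.0% beside 7.12%, and ATGTCA in 26.1% beside 13.3%. ATTGGC overlaps the NFI letters and, on the other strand, holds the CCAAT of the NF-Y letters, as CCAATA does. A word and its reverse complement count as 1.

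Part of this was again shared with the low set. Only 2 of the 10 words, ATATAT and ATGTCA, were also among the first 10 when the low set was the comparison. ATGTCA was in 15.6% of the low set. Its inner letters TGACA, read on either strand, were in 59.5% of members, 43.6% of other distal peaks and 47.5% of the low set. CAGGT was in 45.8%, 32.5% and 43.3%. Among the peaks that were open and went higher, TGACA was in 56.1% and CAGGT in 46.2%. Of 8-letter words, ACACCTGT, which holds the CAGGTG E-box letters on the other strand, was in 2.44% beside 0.526%, and GACATCAC in 4.10% beside 1.01%. Without the windows that align with a member, CAATAG and CCAATA stayed first among 6-letter words, with ratios of 2.44 and 2.43, and TGACA was in 61.4% of 765 members beside 43.7%.

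Members were mostly solitary. The nearest other peak of the table lay a median of 5.23 kb away, beside 3.34 kb for other distal peaks, and 48.2% had one within 5 kb, beside 64.1%. Another member lay within 1 kb of 6 members, within 10 kb of 26 (2.88%) and within 100 kb of 117 (13%). Peaks that were no members were higher with Prox1 at close range. The 69 such peaks within 1 kb of a member had a median difference of 0.96, and 47.8% of them were higher by at least 1.00. Between 1 and 2 kb the median of 126 peaks was -0.09, and from 2 to 5 kb that of 404 peaks was -0.47. The medians over all peaks and over distal peaks were -0.42 and -0.50. These classes include promoter peaks, and a peak near several members counts in each class it falls in.

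**Figure D5:**
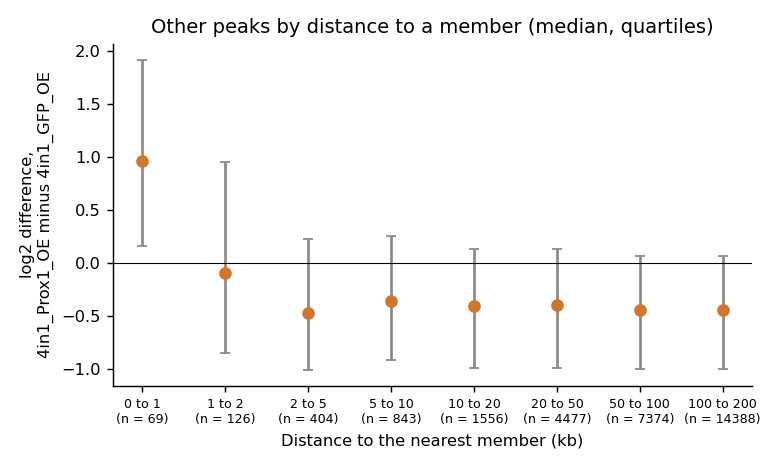
Log2 difference between group means (y axis) of peaks that are not members, by distance to a member (x axis, kb), with the number of peaks under each class. The axis names the nearest member, but a peak near several members counts in each class it falls in. Promoter peaks are included. Points are medians and bars run between the quartiles. The median is 0.96 within 1 kb and lies between -0.36 and -0.47 in every class beyond 2 kb.

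Members were nearest to 792 of 21924 protein-coding genes (3.61%), and 708 of these had a single member. Nearness says nothing of which gene a site acts on. Tenm3, a teneurin adhesion gene, had the most, with 7 members of the 130 distal peaks nearest to it, none in its body and all between 480.7 and 2007 kb from its start. Their levels with Prox1 ran from 6.504 to 6.99. Naaladl2 had 5 of 67, all in its introns, with differences of 2.69 to 5.16. Adgrl2 and Pcdh9, genes of an adhesion receptor and a protocadherin, had 4 each, as did Pik3r1, which encodes a regulatory subunit of PI3 kinase. Bbs9, Cdh12, Cntn1, Efna5 and Eipr1 had 3 each.

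The remaining distal peaks around these genes had median differences from -0.86 at Naaladl2 to 0.09 at Eipr1, beside -0.50 for all distal peaks. The median was -0.40 at Tenm3 and -0.65 at Pik3r1. At equal totals those of Tenm3, Bbs9, Cntn1 and Eipr1 would be above 0. The count depends on how many peaks have a gene as their nearest. By the nearest start of any gene, noncoding ones included, Tenm3 had no member and Naaladl2 had 1.

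Of 28 liver transcription factor genes, 5 (17.9%) were nearest to 1 member each, beside 3.61% of all protein-coding genes. The share was also 17.9% for fibroblast and mesenchyme regulators, 14.3% for bile duct genes and 13.3% for neuronal genes. It was 0 to 7.14% for the epithelial, extracellular matrix, lymphatic and muscle lists. A high share is thus not particular to liver genes. It depends on how many peaks have a gene as nearest, and these 28 genes had 535 distal peaks. The window nearest Onecut1, a regulator of hepatocyte and bile duct development, lay 151 kb away and went from 3.73 to 7.08. The one nearest Lhx2, 55.5 kb away, went from 4.37 to 7.11. Windows nearest to the nuclear receptor genes Esrrg, Nr2f1 and Nr2f2 went from 3.71 to 6.70, from 4.10 to 6.78 and from 3.87 to 6.55. Those of Nr2f1 and Nr2f2 lay 1047 and 413 kb from the start.

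Of 54 liver enzyme genes, 3 (5.56%) were nearest to a member. An intron window of Aldh1a1, a retinal dehydrogenase gene, went from 3.93 to 6.88. The window nearest Arg1, the arginase of the urea cycle, lay 102 kb away and went from 3.56 to 6.76. The window nearest Fabp1, a fatty acid binding protein of liver, went from 4.42 to 6.53. None of 43 plasma protein genes was nearest to a member, although 190 distal peaks had one of them as nearest gene. Members made up 0.935% of the distal peaks nearest to liver transcription factor genes and 1.26% of those nearest to liver enzyme genes, beside 0.605% of all distal peaks, on 5 and 3 peaks.

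Lists of other fates differed in the share of their distal peaks that were members, on few peaks each. Of 56 fibroblast and mesenchyme regulators, 10 had 11 members in all, which is 0.671% of their 1640 distal peaks beside 0.605% overall. Runx1 had 2, one 5.29 kb from its start (4.45 to 7.32) and one in an intron (3.46 to 6.67). Ebf1 and Ebf2, whose proteins bind the EBF motif, had 1 each, 340 and 213 kb away (4.40 to 6.72 and 3.98 to 6.53). Of 30 neuronal genes, 4 had 6 members, or 0.829% of their distal peaks. Sox2 had 2, and the Nfasc intron window went from 4.48 to 7.15. The window nearest Isl1, from 1.75 to 6.59, is a run of C and T.

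The muscle list had 2 of 28 genes, Mef2c (4.27 to 6.53) and Myocd (4.02 to 6.79), which is 0.621% of its distal peaks. The bile duct and progenitor list had 3 of 21, Cdh6, Jag1 and Klf5, with differences of 2.44 to 2.54, or 0.575% of its distal peaks. The extracellular matrix list had 1 of 33, Postn (2.32 to 6.87), whose window was again a C and T run, and this was 1 of 735 distal peaks (0.136%). The lymphatic endothelium list, a tissue that PROX1 specifies, had 1 of 26, which was Nr2f2, or 1 of 598 distal peaks (0.167%). None of 32 epithelial junction genes, with 234 distal peaks, had one. These 3 shares lay below the 0.605% of all distal peaks, but rest on at most 1 member each and were not tested.

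Promoters of the nearest genes moved as those of all genes did. Of the 792 genes, 696 had a peak at a start site, whose median difference was -0.20, with 21.4% above 0. All 14598 protein-coding genes with such a peak had the same median, with 18.4% above 0. At equal totals both medians would be above 0, at 0.21 and 0.22, so no direction is read from them. The labelled cell type could not be checked by transcripts. All 56 fibroblast list genes had a promoter peak, with a median 4in1_GFP_OE mean of 9.15, and none was below 4.50. The 14598 protein-coding genes with such a peak had a median of 8.985, with 43 below 4.50. These levels are therefore no check of the cell type.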

How the data were processed

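ATAC-seq libraries of 12 MEF cultures fell into 4 groups of 3, by their labels. Per the study's methods and processing notes, the authors trimmed reads (Trimmomatic 0.38), aligned them to mm10 (Bowtie 2 2.3.4.3), called peaks and compared groups with DiffBind 3.4.11. MACS2 2.1.2 is named as the peak caller there and Genrich in the reporting summary. The authors deposited log2 group means of normalized read counts per peak, named concentrations. No value per library or depth was used, so no spread between libraries or test is given, and precision is unknown. The table's fold changes, p-values and FDR, which are the authors' own comparison, and their peak lists were not used.

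The rule was applied to the log2 group means. Start sites, exons and introns came from GENCODE M21, sequence from GRCm38.p6. All 176680 peaks lay within the chromosome lengths. Distances run from the window edge. Consensus motifs (37), written from general knowledge, were searched on both strands, long ones with at most 1 mismatch. Words were ranked by the ratio of shares, at a minimum of 5% of members for 6 letters and 2% for 8. Members were compared with other distal peaks, members removed, where the design had named all distal peaks. Windows were aligned with blastn 2.17.0 (word size 11, e-value at most 1e-5, no low-complexity filter) and grouped by linked alignments of at least 60 bases. The motif search, word counts and rule were tested on simulated data. Other steps used Python 3.11.15, numpy 2.4.6, pandas 2.3.3 and matplotlib 3.10.9.

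The members, gene lists and motifs were chosen with earlier results of these data known. Named peaks were the 12 with the highest 4in1_Prox1_OE mean, the 12 with the largest difference, the 5 nearest to each limit on either side and those nearest to a liver list gene. Named genes were the 10 with most members and up to 3 from each other list, except 1 gene that is not reported here. The likeness between windows and the C and T runs were looked at after the data were seen.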

Additional observations from a re-analysis of the deposited data

How the results depend on the processing

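The members' count and levels depend on the limits, and fewer or other peaks pass by construction. A 4in1_GFP_OE limit of 4.0 left 367 members with a median difference of 3.16, a GC content of 44.8%, a distance of 20174 bases to a start site and 50.1% between genes. A limit of 5.0 gave 1933 members, 2.32 and 46.8% GC. A 4in1_Prox1_OE limit of 6.0 gave 2688 members and 2.41, and one of 7.0 gave 170 members, 3.09 and 47.0% GC. Shifting the 4in1_Prox1_OE means up by 0.41 to equal totals gave 2336 members and a difference of 2.87, and shifting them by 0.42 to a median difference of 0 gave 2348 and 2.87. Members over 5 kb from a start site lay 22637 bases away at the median. Against protein-coding genes alone the distance was 40534.5 bases and 53.3% lay between genes. The central part of each window had 46.5% GC. The share of members with another member nearby was 2.88% within 10 kb and 61% within 1 Mb. Leaving out the windows that align with a member left 765 members and a difference of 2.70, and leaving out the C and T runs left 891 and 2.70. Both were chosen after seeing the data, as was the basic annotation. No paired analysis was possible because only group means were at hand, so leaving out a replicate, the replicate block and another count model could not be run either. Depth limits all of this in an unknown way, since the group means carry no error.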

Other observations

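The C and T runs were not confined to members, though runs low in both groups would not have been listed. Of the 116 distal peaks outside the set with at least 80% C and T on 1 strand, 71 (61.2%) were higher with Prox1 by at least 2.00, with medians of 2.96 without Prox1 and 5.93 with it. None of the 223 distal peaks that were open without Prox1 and higher with it, and none of the 27 that were nearly absent with Prox1, was such a run. Sequence likeness to a member was found in 6.28% of the former and in 2 of the latter.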
